A study of Homo sapiens with 12 samples.

Results

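The 38 genes described here encode the enzymes and transporters of glycolysis and the hypoxia response, and they were picked by name from the 58381 genes in the tables. They were grouped by role into 4 glucose and lactate transporters, 9 enzymes of the preparatory phase from hexokinase to triosephosphate isomerase, 8 enzymes of the payoff phase from GAPDH to lactate dehydrogenase, 4 regulators of flux, 4 subunits of hypoxia-inducible factor (HIF) and its prolyl hydroxylases, and 9 hypoxia targets. Their RNA was measured in sublines of HMC-1, a human line grown from a patient with mast cell leukemia, with 3 libraries of polyadenylated RNA each. HMC-1.1 cells carry V560G-KIT and HMC-1.2 cells carry V560G-KIT together with D816V-KIT. HMC-1.3 clone 1 and clone 2 were derived from HMC-1.2 by CRISPR/Cas9 reversal of V560G, so that D816V-KIT, present on 1 allele, remained. All groups thus carry at least 1 activating KIT mutation, and none has wild-type KIT alone. Each HMC-1.3 group is a single clone that passed through puromycin selection and limiting dilution, and both clones also received a silent base change beside the repaired codon, so the repaired allele cannot be told apart from clonal history. The cells were plated in triplicate, and p-values therefore measure only the spread between these samples, which may be technical.

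Glycolysis splits glucose into pyruvate, and lactate dehydrogenase turns pyruvate into lactate, which leaves the cell through monocarboxylate transporters. HIF is a pair of an alpha subunit (HIF1A or EPAS1) and a beta subunit (ARNT or ARNT2). In the presence of oxygen, prolyl hydroxylases of the EGLN family mark the alpha subunit for destruction by VHL. When oxygen is low, HIF binds short DNA elements and raises the transcription of glycolytic enzymes, VEGFA, EGLN genes and other targets. KIT is the receptor through which stem cell factor keeps mast cells alive, and mutated KIT signals without it.

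The libraries held 29225900 to 43181402 expected counts. Of the 16 mast cell markers listed, 11 had a mean of at least 1 FPKM (fragments scaled for transcript length and for library depth), among them KIT, TPSAB1, CPA3, HDC and GATA2, while CMA1, CTSG, MS4A2, FCER1A and MRGPRX2 did not. The summed level of the mast cell list was 2912 to 2948 FPKM in HMC-1.2 and 2141 to 2306 FPKM in the other groups. TPSAB1, a tryptase gene, had 573 to 607 FPKM in HMC-1.2 and 27.6 to 45.2 FPKM elsewhere, while KIT, SIGLEC6, GATA2 and MITF were lower in every HMC-1.2 library than in any other. None of the 4 genes each of the B cell, T cell, monocyte and fibroblast lists had a mean of at least 1 FPKM, and CD8A and FCGR3A were at 0 in every library. The eosinophil list summed to 220 to 227 FPKM in HMC-1.2 and 10.6 to 39.4 FPKM elsewhere, and the epithelial list, nearly all of it KRT19, to 432 to 444 and 171 to 226 FPKM. The megakaryocyte list summed to 661 to 688 FPKM in HMC-1.2 and 879 to 991 FPKM elsewhere, with PF4 and GP9 at 0 in every library, and the erythroid list to 3.45 to 4.64 and 5.14 to 9.72 FPKM. Mitochondrially encoded transcripts took 1.77% to 1.99% of the counts in HMC-1.2, 1.96% to 2.42% in clone 2, 1.84% to 2.28% in HMC-1.1 and 2.27% to 2.60% in clone 1. The part of these differences in the results below was not tested. In bulk RNA, fewer cells of a type and less RNA per cell cannot be told apart.

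HIF recognises a core of 5 letters, ACGTG or GCGTG. It was searched on both strands of the 300 bases around a transcript start listed for each member in the RefSeq promoter table (build GRCh38.p14, 250 bases before to 50 after the start). Any other start of the same gene was not searched. For EPAS1, PFKFB4 and SLC16A3, among others, the start used lies inside the gene span given below. An entry was found for 33 of the 38 members, and not for BNIP3L, NDRG1, SLC16A1, SLC2A3 and VEGFA. The core was present in 25 of the 33 windows (75.8%), against 48.4% of all 35116 promoters of this length. The ACGTG form was found in 42.4% of the members' windows and in 21.4% of all. The core overlaps the E-box CACGTG, the letters bound by MYC and its relatives, which 15.2% of the members' windows and 7.26% of all contained. The members' windows were also richer in G and C, with a median of 70.0% against 58.7%, and the part of this in the motif counts was not tested. The following stretches are shown because they hold matches before the start in members whose RNA changed between sublines (2 of the matches for LDHA), with the core in capitals and the sequence on the strand of the gene.
LDHA, chr11:18394369-18394393, plus strand, 184 bases before the start: ctcccagcgcACGTGgagcagtctg
LDHA, chr11:18394467-18394491, plus strand, 86 bases before the start: cccgactcacACGTGggttcccgca
EGLN1, chr1:231422288-231422312, minus strand, 13 bases before the start: gggccgtggtgtACGTGcagagcgc
EPAS1, chr2:46297280-46297304, plus strand, 117 bases before the start: gcctgccggcGCGTGcccgcccaca
PFKFB4, chr3:48556955-48556979, minus strand, 166 bases before the start: agttgggcatGCGTGgtcggaggcc
ADM, chr11:10304962-10304986, plus strand, 101 bases before the start: gcaggagcgcGCGTGgctgaggaaa

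LDHA held 6 matches of the core counted over both strands, 5 of them in the ACGTG form. Both printed LDHA stretches hold the E-box CACGTG, which reads the same on either strand, so each of these sites was counted once per strand and the number of sites is smaller than that of matches. EGLN1, EPAS1, PFKFB4 and ADM held 1 match each. PFKM and SLC16A3 held none in this window, as did HK1, PDK1, PFKP, PGAM1, TPI1 and EGLN3. A match is a description of letters and not a bound site.

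Levels of the members spanned from a housekeeping enzyme to barely detected transcripts. On the FPKM scale the mean over the 12 libraries was highest for GAPDH (4767 FPKM, range 4323 to 5438), followed by ALDOA (1323), ENO1 (1276) and LDHB (1109). The range of ENO1 over the libraries overlapped those of ALDOA and of LDHB, while every ALDOA library was above every LDHB library. TPI1, LDHA and PKM came next at 881, 842 and 794 FPKM, also with overlapping ranges. The 17 enzymes from HK1 to LDHB held 1.86% to 1.90% of the summed FPKM in the HMC-1.2 libraries and 1.78% to 1.82% in clone 2, while HMC-1.1 held 1.68% to 1.70% and clone 1 held 1.56% to 1.59%. These ranges did not overlap between any of the groups. GAPDH was the largest term of the sum, with group means of 5365 FPKM in HMC-1.2 and 4648 FPKM in clone 2. A sum without GAPDH was not computed, so these shares do not show that the enzymes as a set were lower in clone 2. At the other end, the regulators PFKFB3, PFKFB4, PDK1 and PDK3 had means of 8.04 to 11.6 FPKM and ADM had 1.71 FPKM. EGLN3, a prolyl hydroxylase, had 0 to 7 counts per library. CA9, a membrane carbonic anhydrase and a widely used hypoxia marker, had 0 counts in 11 libraries and 1 count in clone 2 replicate 2, and a count of 0 allows up to 0.0695 to 0.103 CPM (counts scaled to the library total) by counting error alone. Neither gene passed the filter on low counts, and 36 of the 38 members were tested.

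Each comparison below was made with edgeR's quasi-likelihood test on the counts with Benjamini-Hochberg adjustment over the 15944 genes tested. A gene counts as changed where its adjusted p is below 0.05 and its fold exceeds 1.5. Of the 36 members, 9 changed in at least 1 of the 6 comparisons of groups, as did 30.1% of all genes. The first question was how the repair of V560G in HMC-1.2 went along with these genes. In clone 1 against HMC-1.2, 5 of the 36 members changed (13.9%), against 20.0% of all genes tested, with 2 members higher (11.8% of all genes) and 3 lower (8.18% of all genes). In clone 2 against HMC-1.2, 5 members changed (13.9%), against 16.5% of all genes, with 2 higher (7.98% of all genes) and 3 lower (8.51%). For HMC-1.1 relative to HMC-1.2, 3 members changed (8.33%), against 17.6% of all genes, with 2 higher (10.1% of all genes) and 1 lower (7.52%). The members changed at no higher rate than genes at large in any of the 3. By the adjusted p alone, without a minimum fold, 27 members passed in clone 1 (75.0%, against 59.4% of all genes), 8 higher (30.1% of all genes) and 19 lower (29.3%). In clone 2 25 passed (69.4%, against 48.5% of all genes), 11 higher (24.7% of all genes) and 14 lower (23.8%), and HMC-1.1 had 25 (69.4%, against 53.7%), 8 higher (27.2% of all genes) and 17 lower (26.5%). Small folds pass the adjusted p more readily at high counts. Many members were highly expressed, and the part of this in the shares here and below was not tested. The median log2 fold change of the members was -0.15 in clone 1, -0.08 in HMC-1.1 and -0.03 in clone 2, with medians over all genes between -0.00 and 0.01. These 3 comparisons share the HMC-1.2 libraries, so their values are given side by side and not as independent of each other.

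**Figure D1:**
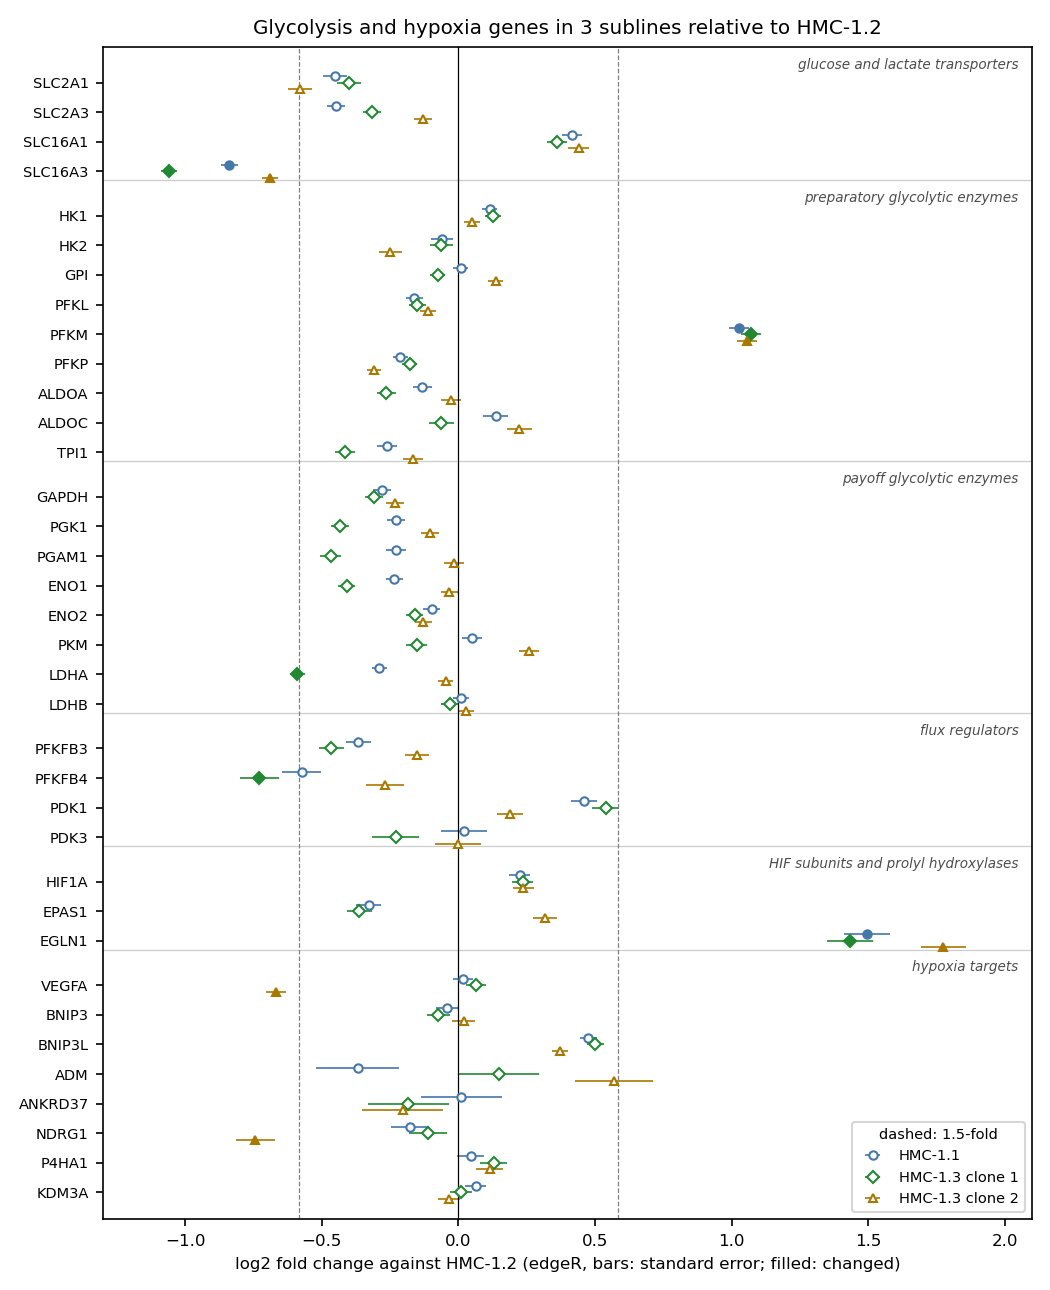
Log2 fold change of the 36 tested members (rows, grouped by role) against HMC-1.2 on the x axis for HMC-1.1 (circles), HMC-1.3 clone 1 (diamonds) and clone 2 (triangles), all 3 sharing the HMC-1.2 libraries; bars are standard errors, dashed lines mark 1.5-fold, and filled symbols changed. EGLN1 and PFKM lie farthest to the right, at 1.03 to 1.77, and SLC16A3, at -1.06 to -0.69, is farthest to the left in clone 1 and HMC-1.1, while NDRG1 (-0.74) is in clone 2.

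Among the transporters, SLC16A3 changed most. It encodes MCT4, a monocarboxylate carrier suited to the export of lactate, and lies at chr17:82217934-82261129 (GRCh38). Its level was 179.6, 181 and 184 FPKM in the HMC-1.2 libraries. It was 112, 106 and 109 FPKM in HMC-1.1, 93.1, 92.1 and 91.2 FPKM in clone 1, and 114, 122 and 118 FPKM in clone 2. Every HMC-1.2 library was thus above every other library, and clone 1 was below all the rest. The log2 fold change against HMC-1.2 was -1.06 ± 0.03 (SE) in clone 1, with an edgeR adjusted p of 1.2e-14. It was -0.69 ± 0.03 in clone 2, with an edgeR adjusted p of 3.2e-12, and -0.84 ± 0.03 in HMC-1.1, with an edgeR adjusted p of 2.4e-13.

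SLC16A1, which encodes the other widespread lactate carrier, MCT1, went the other way without reaching 1.5-fold, with a mean of 18.1 ± 0.60 FPKM (SD, n = 3) for HMC-1.2 and 24.4 to 25.3 FPKM as group means elsewhere. Its log2 fold changes against HMC-1.2 were 0.36, 0.44 and 0.42 for clone 1, clone 2 and HMC-1.1, each past the adjusted p. SLC16A3 accordingly made up 90.9% ± 0.29 (SD, n = 3) of the summed FPKM of both carriers in HMC-1.2, 82.9% ± 0.53 in clone 2, 81.3% ± 0.60 in HMC-1.1 and 78.5% ± 0.68 in clone 1. Of the glucose transporters, SLC2A3 (GLUT3) had 198 to 274 FPKM as group means and SLC2A1 (GLUT1) had 19.6 to 27.8 FPKM, so that GLUT3 made up 90.2% to 92.6% of their summed FPKM. Both had their highest group mean in HMC-1.2. SLC2A1 had a log2 fold change of -0.40 ± 0.04 in clone 1, -0.45 ± 0.04 in HMC-1.1 and -0.58 ± 0.04 in clone 2 against HMC-1.2. SLC2A3 had -0.32 ± 0.03, -0.45 ± 0.03 and -0.13 ± 0.03 in that order, all past the adjusted p and none past 1.5-fold.

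Of the 9 preparatory enzymes, PFKM alone changed in a comparison with HMC-1.2. PFKM is the muscle isozyme of phosphofructokinase, the enzyme of the committed step of glycolysis, and lies at chr12:48105139-48146404 (GRCh38). Its level was 15.8, 16.2 and 13.9 FPKM in HMC-1.2. It was 32.7, 31.4 and 34.3 FPKM in HMC-1.1, 34.1, 35.4 and 36.9 FPKM in clone 1, and 30.9, 32 and 33.3 FPKM in clone 2. All HMC-1.2 libraries lay below all others, without overlap. Against HMC-1.2 the log2 fold change was 1.07 ± 0.04 in clone 1 with an edgeR adjusted p of 1.6e-13, 1.06 ± 0.04 in clone 2 with 2e-13 and 1.03 ± 0.04 in HMC-1.1 with 3.1e-13. Between the remaining groups PFKM differed by 0.05 or less on the log2 scale, with adjusted p of 0.41 to 0.73 in edgeR's test.

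The other phosphofructokinases did not follow PFKM. The platelet isozyme PFKP had log2 fold changes of -0.18, -0.31 and -0.21 in clone 1, clone 2 and HMC-1.1 against HMC-1.2, and the liver isozyme PFKL had -0.15, -0.11 and -0.16. PFKM therefore held 7.0% ± 0.86 (SD, n = 3) of the summed FPKM of the 3 isozymes in HMC-1.2, against 16.4% ± 0.69 in clone 1, 15.3% ± 0.16 in HMC-1.1 and 15.7% ± 0.59 in clone 2. PFKP remained the most abundant of the 3, with 45.2% to 52.0%. HK1 made up 87.1% to 89.2% of the summed FPKM of the 2 hexokinases HK1 and HK2, and ALDOA made up 93.9% to 95.1% of that of the aldolases ALDOA and ALDOC. Among HK1, HK2, GPI, ALDOA, ALDOC and TPI1, log2 fold changes against HMC-1.2 ran from -0.41 (TPI1, clone 1) to 0.22 (ALDOC, clone 2).

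**Figure D2:**
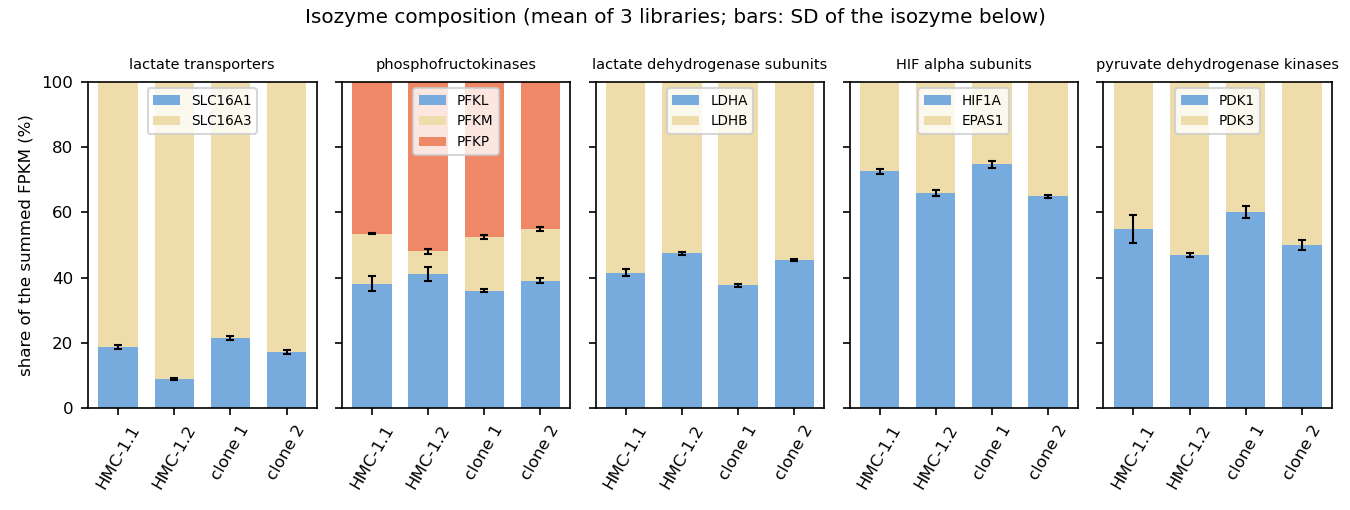
Share of each isozyme in the summed FPKM of its family (y axis, %, mean of 3 libraries, error bars SD) in the 4 groups (x axis) for lactate transporters, phosphofructokinases, lactate dehydrogenase subunits, HIF alpha subunits and pyruvate dehydrogenase kinases. The PFKM band is narrowest in HMC-1.2 at 7.0%, LDHA is lowest in clone 1 at 37.7%, and HIF1A is higher in HMC-1.1 and clone 1 than in the other groups.

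Most payoff enzymes were lower in clone 1 than in the other groups by small folds. Against HMC-1.2, 7 of the 8 passed the adjusted p in clone 1 and all 7 were lower, with a median log2 fold change of -0.36 over the 8. In HMC-1.1 6 passed, all lower, with a median of -0.23, and in clone 2 4 passed, 1 higher and 3 lower, with a median of -0.04. With DESeq2 the same counts were found, and with library totals as the only scaling they were 7, 5 and 4. LDHA was the only one past 1.5-fold. The share that passed the adjusted p alone is to be read against the 59.4%, 53.7% and 48.5% of all genes given above.

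LDHA encodes the M subunit of lactate dehydrogenase, which favours the making of lactate, and lies at chr11:18394560-18408425 (GRCh38). Its level was 994, 969 and 954 FPKM in HMC-1.2 and 951, 923 and 935 FPKM in clone 2. It was 777, 799 and 814 FPKM in HMC-1.1 and 663, 659 and 671 FPKM in clone 1. Clone 1 was lowest without overlap, HMC-1.1 was intermediate, and every clone 2 library lay below every HMC-1.2 library by a small margin. Against HMC-1.2 the log2 fold change was -0.59 ± 0.03 in clone 1 with an edgeR adjusted p of 1.1e-11, -0.29 ± 0.03 in HMC-1.1 with an adjusted p of 1.5e-07, and -0.05 ± 0.03 in clone 2 with an adjusted p of 0.18. The clone 1 value sat just past 1.5-fold (a fold of 1.51), and the call was lost without HMC-1.2 replicate 1 or without clone 1 replicate 3, with values of -0.61 to -0.58 over all libraries left out in turn. It was also lost with library totals alone, with glmTreat and with limma on FPKM. LDHB, the H subunit, stayed at group means of 1080 to 1131 FPKM, with log2 fold changes of -0.03 to 0.03 against HMC-1.2 and none past the adjusted p. LDHA made up 47.4% ± 0.42 of the summed FPKM of both subunits in HMC-1.2, 45.3% ± 0.35 in clone 2, 41.4% ± 1.06 in HMC-1.1 and 37.7% ± 0.52 in clone 1 (SD, n = 3).

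The enzymes from GAPDH to pyruvate kinase had smaller differences than LDHA in clone 1. In clone 2, where LDHA had -0.05, only PGAM1 and ENO1 had smaller ones. In clone 1 against HMC-1.2 the log2 fold change was -0.47 ± 0.04 for PGAM1, -0.43 ± 0.03 for PGK1, -0.41 ± 0.03 for ENO1, -0.31 ± 0.03 for GAPDH, -0.16 ± 0.03 for ENO2 and -0.15 ± 0.04 for PKM. In clone 2 against HMC-1.2 those of PGAM1 and ENO1 were -0.01 ± 0.04 and -0.03 ± 0.03, those of GAPDH, ENO2 and PGK1 were -0.23 ± 0.03, -0.13 ± 0.03 and -0.10 ± 0.03, and PKM, pyruvate kinase, was higher by 0.26 ± 0.04. PKM had 917 ± 32 FPKM (SD, n = 3) in clone 2 and 706 ± 27 FPKM in clone 1. GAPDH, often used as a reference gene, had 5365 ± 111 FPKM in HMC-1.2 and 4495 to 4648 FPKM as group means elsewhere, with every HMC-1.2 library above all others. Reads of near-identical gene copies are divided among them by the counting tool, and pseudogenes named after a member held at most 0.044% of its counts, the highest share being that of PGK1.

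Of the flux regulators, PFKFB4 changed in clone 1. PFKFB3 and PFKFB4 make and break fructose-2,6-bisphosphate, the strongest activator of phosphofructokinase, and PFKFB4 lies at chr3:48517684-48562015 (GRCh38). PFKFB4 had 10.7, 9.57 and 10.2 FPKM in HMC-1.2 and 6.69, 6.76 and 7.05 FPKM in HMC-1.1. It had 8.28, 5.94 and 6.65 FPKM in clone 1 and 8.33, 8.25 and 8.02 FPKM in clone 2. The HMC-1.2 libraries were the highest, and clone 1, whose replicate 1 stood apart from its other 2 libraries, overlapped clone 2 and HMC-1.1. Its log2 fold change against HMC-1.2 was -0.73 ± 0.07 in clone 1 with an edgeR adjusted p of 1.6e-07, -0.57 ± 0.07 in HMC-1.1 and -0.27 ± 0.07 in clone 2. In clone 1 the FPKM fold was smaller than the count fold, and limma on log2(FPKM + 1) gave a smaller difference of -0.50 in clone 1 without a call. PFKFB3 had log2 fold changes of -0.47, -0.37 and -0.15 in clone 1, HMC-1.1 and clone 2. PDK1, a kinase that shuts pyruvate dehydrogenase and so limits the use of pyruvate in the mitochondria, was higher by 0.54 ± 0.05 in clone 1 and 0.46 ± 0.05 in HMC-1.1, and by 0.19 ± 0.05 in clone 2. Its relative PDK3 had -0.23 ± 0.09 in clone 1 and values near 0 elsewhere.

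**Figure D3:**
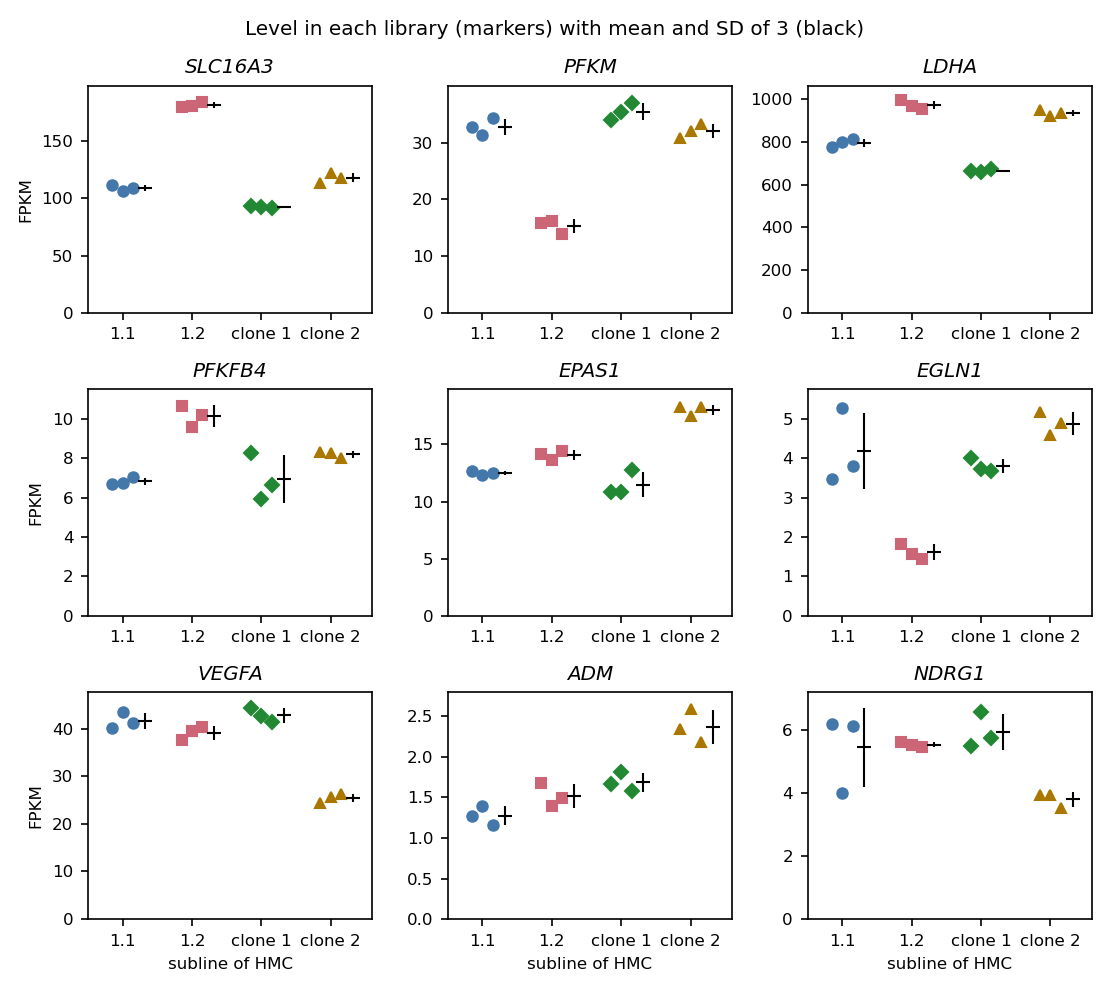
Level (y axis, FPKM, linear from 0) of the 9 members that changed in at least 1 comparison, in each library (coloured markers) of the 4 groups (x axis), with the mean and SD of 3 libraries in black. HMC-1.2 stands apart for SLC16A3, PFKM and EGLN1, clone 1 for LDHA, and clone 2 for EPAS1, VEGFA and ADM.

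Among the oxygen sensors, EGLN1 had the largest change of all members. EGLN1 encodes PHD2, the main prolyl hydroxylase that marks HIF alpha in the presence of oxygen and itself a HIF target, and lies at chr1:231363751-231422287 (GRCh38). Its level was 1.83, 1.57 and 1.45 FPKM in HMC-1.2. It was 3.47, 5.28 and 3.80 FPKM in HMC-1.1, 3.99, 3.73 and 3.68 FPKM in clone 1, and 5.16, 4.59 and 4.88 FPKM in clone 2. The HMC-1.2 libraries lay below all others, and HMC-1.1 replicate 2 stood apart from its group in FPKM although its count of 682 was close to the 680 and 703 of the others. The log2 fold change against HMC-1.2 was 1.43 ± 0.08 in clone 1 with an edgeR adjusted p of 1.9e-10, 1.77 ± 0.08 in clone 2 with 8.6e-12, and 1.496 ± 0.084 in HMC-1.1 with 1.1e-10. On log2(FPKM + 1), where the added 1 is large against such levels, the differences were 0.88, 1.17 and 0.97 and the calls held. The length per transcript implied by count and FPKM was 3.98 ± 0.57 kb in HMC-1.2 and 4.54 to 4.72 kb as group means elsewhere, so the FPKM folds are smaller than the count folds for this gene.

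HIF1A, the alpha subunit found in most cells, was higher than in HMC-1.2 by 0.24 ± 0.04 in both clones and by 0.22 ± 0.04 in HMC-1.1 on the log2 scale, and between the other groups it differed by 0.01 or less (SE 0.04). EPAS1, which encodes the alpha subunit HIF-2α, lies at chr2:46293667-46386697 (GRCh38). It had 14.2, 13.6 and 14.4 FPKM in HMC-1.2 and 12.7, 12.3 and 12.5 FPKM in HMC-1.1. It had 10.8, 10.9 and 12.8 FPKM in clone 1 and 18.3, 17.5 and 18.3 FPKM in clone 2. Clone 2 was highest without overlap, while clone 1 and HMC-1.1 overlapped. Against HMC-1.2 its log2 fold change was 0.32 ± 0.04 in clone 2 but -0.36 ± 0.05 in clone 1 and -0.33 ± 0.05 in HMC-1.1, each past the adjusted p and none past 1.5-fold. HIF1A made up 74.6% ± 0.94 (SD, n = 3) of the summed FPKM of both alpha subunits in clone 1 and 72.5% ± 0.88 in HMC-1.1, but 65.8% ± 1.01 in HMC-1.2 and 64.8% ± 0.59 in clone 2.

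The hypoxia targets did not move as a block. Of the 8 tested, 2 changed in clone 2 against HMC-1.2, VEGFA and NDRG1, both lower. Of all genes, 16.5% changed in that comparison and 8.51% were lower. In clone 1 BNIP3L and P4HA1 passed the adjusted p without reaching 1.5-fold, and in HMC-1.1 BNIP3L and NDRG1 did. These are 2 of the 8 in each, while 59.4% of all genes passed in clone 1 and 53.7% in HMC-1.1. VEGFA, the growth factor for blood vessels (chr6:43770184-43786487, GRCh38), had 37.6, 39.5 and 40.4 FPKM in HMC-1.2, 40.2, 43.6 and 41.2 FPKM in HMC-1.1 and 44.4, 42.6 and 41.4 FPKM in clone 1. In clone 2 it had 24.4, 25.6 and 26.2 FPKM, below all other libraries, while HMC-1.1 overlapped both HMC-1.2 and clone 1. For clone 2 against HMC-1.2 the log2 fold change was -0.67 ± 0.04 with an edgeR adjusted p of 9.3e-11, while clone 1 had 0.07 ± 0.04 (adjusted p = 0.13) and HMC-1.1 had 0.02 ± 0.04 (adjusted p = 0.74) by the same edgeR test.

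NDRG1, a stress and differentiation gene induced by low oxygen, had 5.62, 5.54 and 5.46 FPKM in HMC-1.2, 5.52, 6.59 and 5.75 FPKM in clone 1 and 3.94, 3.94 and 3.54 FPKM in clone 2. In HMC-1.1 it had 6.21, 4.02 and 6.15 FPKM. Clone 2 was lowest, next to HMC-1.1 replicate 2. Its log2 fold change against HMC-1.2 was -0.74 ± 0.07 with an edgeR adjusted p of 1.7e-07, and on log2(FPKM + 1) it was -0.45, without a call.

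ADM, the vasodilator peptide adrenomedullin (chr11:10305073-10307397, GRCh38), was low throughout. It had 1.68, 1.39 and 1.49 FPKM in HMC-1.2, 1.67, 1.81 and 1.58 FPKM in clone 1, 1.27, 1.39 and 1.16 FPKM in HMC-1.1 and 2.34, 2.59 and 2.18 FPKM in clone 2, from 60 to 144 counts per library. Clone 2 was highest without overlap and HMC-1.1 lowest, touching HMC-1.2. Against HMC-1.2 its log2 fold change in clone 2 was 0.57 ± 0.14, past the adjusted p and not past 1.5-fold. BNIP3L, a receptor for the removal of mitochondria, was higher than in HMC-1.2 by 0.50 ± 0.03 in clone 1, 0.48 ± 0.03 in HMC-1.1 and 0.37 ± 0.03 in clone 2 without reaching 1.5-fold, with 144 ± 2.0 FPKM (SD, n = 3) in HMC-1.2. Its relative BNIP3, at group means of 23.0 to 24.9 FPKM, had log2 fold changes of -0.07 to 0.02. KDM3A, a histone demethylase, and ANKRD37 had log2 fold changes of -0.20 to 0.06 against HMC-1.2, none past the adjusted p. P4HA1, a collagen prolyl hydroxylase, had 0.13 ± 0.05 in clone 1, which passed the adjusted p, and 0.11 and 0.04 in clone 2 and HMC-1.1, which did not. The standard error of 0.15 for ANKRD37 leaves room for larger differences in that gene.

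The second question was whether both clones, which carry the same repaired allele, had the same levels. In clone 1 against clone 2, 3 of the 36 members changed (8.33%), against 12.6% of all genes, with 2 higher in clone 1 (8.38% of all genes) and 1 lower (4.25%), and 25 passed the adjusted p alone (69.4%, against 50.2% of all genes). The changed members were VEGFA at 0.73 ± 0.04 (log2, edgeR adjusted p = 5.8e-11), NDRG1 at 0.63 ± 0.07 (adjusted p = 1.5e-06) and EPAS1 at -0.68 ± 0.05 (adjusted p = 2e-09). The NDRG1 and EPAS1 calls did not hold when glmTreat required more than 1.5-fold. Of the 8 payoff enzymes, 5 passed the adjusted p and all 5 were lower in clone 1, led by LDHA at -0.54 ± 0.03, PGAM1 at -0.45 ± 0.04 and PKM at -0.41 ± 0.04, with a median of -0.35 over the 8 against 0.01 over all genes. ENO1 and PGK1 were the other two, at -0.37 ± 0.03 and -0.33 ± 0.03. The clones also differed in PFKFB4 at -0.46 ± 0.07, SLC16A3 at -0.37 ± 0.03, EGLN1 at -0.34 ± 0.07 and PDK1 at 0.35 ± 0.05, none past 1.5-fold. HIF1A, PFKM and P4HA1 differed by 0.02 or less, with standard errors of 0.03 to 0.05.

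**Figure D4:**
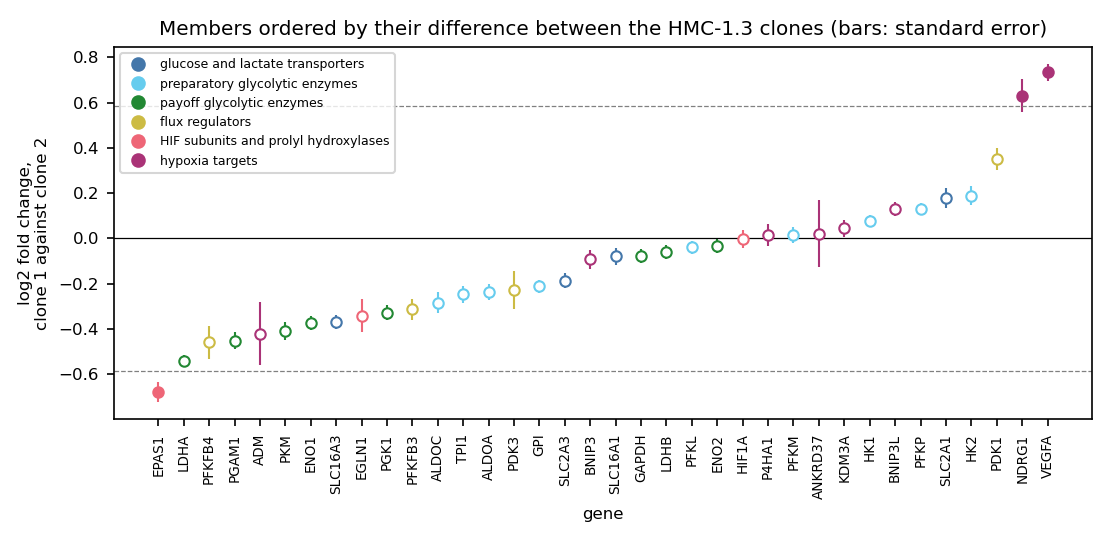
Log2 fold change of clone 1 against clone 2 (y axis, bars are standard errors, dashed lines 1.5-fold) for the 36 tested members in rising order (x axis), coloured by role, with filled points for changed members. VEGFA (0.73) and NDRG1 (0.63) lie at the upper end and EPAS1 (-0.68) and LDHA (-0.54) at the lower end.

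Compared with HMC-1.1, which carries V560G-KIT alone, 0 members changed in clone 1, against 1.01% of all genes (0.671% higher and 0.339% lower), by edgeR, DESeq2 or limma on FPKM. At an unadjusted p under 0.05, 15 members differed by edgeR, 15 by DESeq2 and 12 by limma, and by edgeR 13 passed the adjusted p (36.1%, against 18.7% of all genes), 2 higher (8.87% of all genes) and 11 lower (9.83%). The log2 fold changes ran from -0.30 ± 0.03 for LDHA to 0.52 ± 0.15 for ADM, and 5 of the 8 payoff enzymes were lower. In clone 2 against HMC-1.1, 3 members changed (8.33%), against 8.19% of all genes, with 2 higher (3.04% of all genes) and 1 lower (5.15%). These were ADM at 0.94 ± 0.14 (log2, edgeR adjusted p = 7.7e-05), EPAS1 at 0.65 ± 0.04 (adjusted p = 6.4e-09) and VEGFA at -0.69 ± 0.04 (adjusted p = 2.2e-10). On log2(FPKM + 1), ADM differed by 0.57, without a call. The EPAS1 call was also lost with glmTreat and with limma on FPKM, where the difference was as low as 0.49. By the adjusted p alone 21 members passed (58.3%, against 36.0%), 14 higher in clone 2 (18.5% of all genes) and 7 lower (17.5%), and 5 payoff enzymes were higher, from 0.12 for PGK1 to 0.24 for LDHA. Both comparisons share the HMC-1.1 libraries.

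Other genes of the same pathways, listed by role, were read in the same fit. Of the 15 genes that make up the rest of the oxygen-sensing system, 14 were tested. Relative to HMC-1.2, 3 changed in clone 1 (21.4%, against 20.0% of all genes), 1 in HMC-1.1 (7.14%, against 17.6%) and 1 in clone 2 (7.14%, against 16.5%), all higher, with medians of -0.07, -0.02 and 0.01 on the log2 scale. ARNT2, a beta subunit that pairs with HIF alpha, had 1.37, 1.64 and 1.19 FPKM in HMC-1.2. It had 32.8, 33.0 and 30.7 FPKM in HMC-1.1, 27.9, 27.8 and 30.0 FPKM in clone 1 and 16.6, 15.1 and 18.3 FPKM in clone 2. All HMC-1.2 libraries were lowest, and clone 2 lay below clone 1 and HMC-1.1. The corresponding log2 fold changes were 4.14 ± 0.06 in clone 1, 4.29 ± 0.06 in HMC-1.1 and 3.403 ± 0.057 in clone 2. SIAH1 and SIAH2, ubiquitin ligases that act on EGLN proteins, were higher in clone 1 by 0.72 ± 0.05 and 0.62 ± 0.05 and had 0.06 ± 0.06 and 0.08 ± 0.05 in clone 2. Neither was called in HMC-1.1, but its means of 17.9 and 22.3 FPKM were nearer to clone 1 (20.3 and 23.9) than to HMC-1.2 (12.0 and 15.1). The SIAH2 call was lost without clone 1 replicate 1.

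Of 33 further HIF targets, 30 were tested. Relative to HMC-1.2, 6 changed in clone 1 (20.0%, against 20.0% of all genes), 7 in HMC-1.1 (23.3%, against 17.6%) and 6 in clone 2 (20.0%, against 16.5%), all higher (11.8%, 10.1% and 7.98% of all genes), with medians of 0.10, 0.11 and 0.04 on the log2 scale. PGM1, which links glycogen to glycolysis, had 5.80 ± 0.50 FPKM (SD, n = 3) as the mean of HMC-1.2, 12.5 ± 0.21 in clone 2, 17.2 ± 0.47 in HMC-1.1 and 17.4 ± 0.61 in clone 1. STC2, a secreted glycoprotein, separated the clones, with 23.4 ± 1.4 FPKM in clone 1, 7.62 ± 0.67 in clone 2, 10.4 ± 0.10 in HMC-1.2 and 17.0 ± 0.54 in HMC-1.1. Its log2 fold change was 1.60 ± 0.04 in clone 1 against clone 2, with an edgeR adjusted p of 2.6e-14. TMEM45A was higher than in HMC-1.2 by 0.68 ± 0.13 in clone 1, 0.90 ± 0.12 in HMC-1.1 and 1.07 ± 0.12 in clone 2, and its clone 1 call was lost without HMC-1.2 replicate 3 or clone 1 replicate 1.

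Of 10 listed regulators that answer to glucose or MYC, 4 changed in clone 1 against clone 2 (40.0%, against 12.6% of all genes), 3 higher and 1 lower. TXNIP, which limits glucose uptake and is induced when glucose metabolites build up, had 57.5, 60.7 and 57.3 FPKM in HMC-1.2 and 68.4, 64.7 and 63.6 FPKM in HMC-1.1. It had 122, 118 and 120.1 FPKM in clone 1 and 37.7, 37.4 and 39.3 FPKM in clone 2. No 2 groups overlapped, and the log2 fold change of clone 1 against clone 2 was 1.63 ± 0.04 with an edgeR adjusted p of 2.8e-15. Its relative ARRDC4 had 10.1 ± 0.36 FPKM (SD, n = 3) in clone 1 and 8.36 ± 0.65 in HMC-1.1, but 3.56 ± 0.04 in clone 2 and 3.53 ± 0.39 in HMC-1.2. The difference of clone 1 against clone 2 was 1.47 ± 0.07 (log2). Relative to HMC-1.2, 3 of the 10 regulators changed in clone 1 (30.0%, against 20.0% of all genes), 1 in HMC-1.1 (10.0%, against 17.6%) and 2 in clone 2 (20.0%, against 16.5%). MAX, the partner of MYC, was among them in clone 2, at -0.63 ± 0.03, a call lost on FPKM.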

How the data were processed

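RNA of 12 cultures, 3 per group, was analysed, with groups taken from the titles of the samples. Per the labels and the methods of the study, reads were trimmed with Cutadapt 2.10, aligned to hg38 with STAR 2.5.3 and counted per gene with RSEM 1.3.0, and duplicates were marked with Picard. The authors deposited expected counts without normalization, of which 7.39% were not whole, and these were rounded here. The FPKM that the authors deposited are scaled for transcript length and depth. Both tables were joined by gene identifier, and positions are from Gencode 44 by the identifier without version (99.0% matched, 58.3% in the same version). The reads and the KIT genotypes were not checked here.

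Counts were tested with edgeR 4.0.16 in R 4.3.3 (quasi-likelihood test, TMM factors of 0.974 to 1.024, filterByExpr, 4 groups in the model), with Benjamini-Hochberg adjustment per comparison over 15944 genes. Changed means an adjusted p under 0.05 and a fold over 1.5, and log2 fold changes carry standard errors. Libraries of a group differed by more than sampling noise (chi-square per degree of freedom 2.83 to 7.67), with a common biological coefficient of variation of 0.0442. Intervals for counts of 0 use a floor of 3 counts and cover counting error only. The scripts were tested on simulated data. Alternatives were DESeq2 1.42.0, library totals alone, no filter, only the groups compared, the replicate number as a block, a covariate marking 3 resent libraries, glmTreat, the adjusted p alone, limma 3.58.1 on log2(FPKM + 1) and log2(FPKM + 0.1), pseudogene counts added, and leaving out each library. All 38 members are named. Members that changed in any comparison (9 of 36) are given by library, and of each other list up to 4 genes that changed against HMC-1.2 with the largest difference. Some genes that this rule names are not reported here. The members and lists were chosen with earlier results of these data known, so no list is independent evidence.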

Additional observations from a re-analysis of the deposited data

Results flagged for a closer look

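Each of the following differences is that of the effects of 2 groups against the same HMC-1.2 libraries, tested as the direct comparison of the groups by edgeR's quasi-likelihood test with 3 libraries each. EPAS1 was lower in clone 1 than in clone 2 by 0.68 on the log2 scale (log2 fold change -0.68) and higher in clone 2 than in HMC-1.1 by 0.65. VEGFA was higher in clone 1 than in clone 2 by 0.73, and clone 2 against HMC-1.1 was -0.69. NDRG1 was higher in clone 1 than in clone 2 by 0.63. ADM was higher in clone 2 than in HMC-1.1 by 0.94, at 60 to 144 counts per library. Both EPAS1 calls and those of NDRG1 and ADM were lost with glmTreat. On log2(FPKM + 1) the calls of NDRG1 and ADM and that of EPAS1 in clone 2 against HMC-1.1 were lost. In all 6 differences clone 2 is one of the groups. Their causes were not tested.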

How the results depend on the processing

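None of the 19 differences called for a member changed direction under the alternatives. All calls held with DESeq2, without the filter, with only the groups compared, with a term for the resent libraries and with pseudogene counts added. The LDHA call in clone 1 against HMC-1.2 was lost with library totals alone. Calls were lost with glmTreat (7), limma on log2(FPKM + 1) (6) and limma with 0.1 added instead (4). The cause was not tested. In the order clone 1, clone 2 and HMC-1.1 against HMC-1.2, clone 1 against clone 2, clone 1 against HMC-1.1 and clone 2 against HMC-1.1, the adjusted p alone called 27, 25, 25, 25, 13 and 21 members, and leaving out 1 library at a time gave 4 to 5, 5 to 7, 3 to 4, 3, 0 and 3 to 4. With glmTreat, 3 members changed in clone 1 against HMC-1.2, 1 in clone 1 against clone 2 and 1 in clone 2 against HMC-1.1. With limma on log2(FPKM + 1), 3 changed in clone 1 against HMC-1.2 and 1 in clone 2 against HMC-1.1, and with log2(FPKM + 0.1) 3 changed in the former. Of 100 isozyme shares, 87 moved by more than 1 SD when computed from CPM, which are not scaled for length. Leaving out 1 of 3 libraries cannot move a mean by more than the SD of the 3. That check on the shares therefore could not decide how far they depend on a single library.

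With the replicate number as a block, the counts were 5, 5, 3, 3, 0 and 3 and no call was lost. Correlations of deviations between libraries of the same number ran from -0.28 to 0.33, above 0.1 in 9 of 18 pairs, and 5 of 12 libraries correlated best with one of their own number, so the numbers were not taken to pair the samples. EGLN3, with 0 to 7 counts per library, and CA9, with 0 to 1, did not pass the filter and could not be tested.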

Other observations

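Of 30 further glycolytic isozymes and transporters, 14 were expressed highly enough to be tested. Relative to HMC-1.2, 3 changed in clone 1 (21.4%, against 20.0% of all genes), 2 in HMC-1.1 (14.3%, against 17.6%) and 2 in clone 2 (14.3%, against 16.5%), all lower (8.18%, 7.52% and 8.51% of all genes), with medians of -0.05, -0.21 and -0.15 on the log2 scale. FBP1, which runs the phosphofructokinase step backwards, had 1.15, 1.3 and 1.61 FPKM in HMC-1.2 and at most 0.69 FPKM in any other library, with log2 fold changes of -2.70 ± 0.28 in clone 1, -1.81 ± 0.26 in HMC-1.1 and -1.298 ± 0.243 in clone 2 by edgeR's fit. LDHD, a mitochondrial dehydrogenase of D-lactate, had 4.74 ± 0.55 FPKM (SD, n = 3) as the mean of HMC-1.2, 1.51 ± 0.10 in clone 2, 1.88 ± 0.19 in HMC-1.1 and 2.64 ± 0.49 in clone 1. SLC2A6, a glucose transporter of lysosomes, was lower in clone 1 by 0.74 ± 0.05 on the log2 scale, at 16.9 ± 0.97 FPKM against 26.8 ± 1.1 in HMC-1.2. Its means in HMC-1.1 and clone 2, where it was not called, were also below HMC-1.2, at 18.6 and 20.8 FPKM.

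Of the 8 enzymes of the pentose phosphate pathway, which branches from glucose-6-phosphate, 2 changed in clone 1 (25%, against 20.0% of all genes), 1 in HMC-1.1 (12.5%, against 17.6%) and 0 in clone 2 (against 16.5%) relative to HMC-1.2 by edgeR. In clone 2 4 of them passed the adjusted p alone (50%, against 48.5% of all genes). H6PD, which starts the same path inside the endoplasmic reticulum, had 3.71 ± 0.12 FPKM in HMC-1.2, 8.26 ± 0.57 in clone 1, 7.53 ± 0.44 in HMC-1.1 and 5.44 ± 0.45 in clone 2. PGD had 220.0 ± 1.7 FPKM in HMC-1.2 and 151 to 168 FPKM as group means elsewhere, and its call in clone 1, at -0.62 ± 0.03, was lost with library totals alone and on FPKM. Of 14 genes for the entry of pyruvate into mitochondria, 13 were tested. PC, pyruvate carboxylase, alone changed, in clone 1 at 0.64 ± 0.05 (7.69% of the list, against 20.0% of all genes). That call was lost without clone 1 replicate 2. The higher level of PC was not particular to clone 1. Its mean was 10.0 FPKM in HMC-1.2, 15.6 in clone 1, 15.1 in HMC-1.1 and 14.0 in clone 2. For HMC-1.1 the list held 0 changed genes (17.6% of all genes changed), and for clone 2 it also held 0 (16.5%).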
